A study of Mus musculus with 12 samples.

Results

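The genes Ptprc, Adgre1, Ly6a, Ly6c1, Ly6c2 and Ly6e were followed across 4 groups of mouse stromal cell libraries to set each transcript beside the surface antigen on which the cells had been selected. They were chosen by name, as the genes of antigens used to sort or deplete the cells and 1 relative of the Ly6 family, and are 6 of the 53819 genes of the deposited table. Ptprc encodes CD45, Adgre1 encodes F4/80, Ly6a encodes Sca-1, and Ly6c1 and Ly6c2 both encode the antigen Ly6C. Ly6e encodes a relative that was not used for selection.

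CD45 is a receptor tyrosine phosphatase found on nearly all nucleated blood cells, where it switches on kinases of the Src family. F4/80 is an adhesion G-protein-coupled receptor and a standard antigen of mouse macrophages. The Ly6 proteins are small, disulfide-bonded proteins held on the outer cell membrane by a glycosylphosphatidylinositol (GPI) anchor, and many of their genes lie side by side on mouse chromosome 15. Sca-1 marks blood stem cells and also mesenchymal progenitors in the mouse, Ly6C is carried by inflammatory monocytes and by some endothelial and T cells, and Ly6e is known as an interferon-induced gene that limits infection by several viruses.

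RNA was sequenced from cells of wild-type mice in 4 groups of 3 libraries. BM sorted cells came from hind-limb and pelvic marrow, were plated on collagen-I, passaged once, and were then taken by flow sorting if they carried Sca-1 and CD51 and lacked F4/80, Ly6C, CD45 and CD31. BM nonsorted cells had the same origin and culture and were used without the sort. BAC depleted cells, where BAC stands for bone-associated cells, were released from hind-limb bone fragments with collagenase-I and passed over magnets that removed cells carrying CD45, F4/80 or Ly6C, and BAC nondepleted cells were used without that step. Sca-1, CD51 and CD31 therefore took no part in the BAC selection. Marrow cultures were kept under hypoxia in medium without ascorbic acid, and the labels do not say whether the bone-associated cells were cultured. Neither the age of the mice nor whether the 3 libraries of a group came from separate animals is labelled.

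Libraries held 27937709 to 32164725 counts. Library BAC depleted 1 stood apart. It had 43406 counts of Xist, the RNA of the inactive X chromosome, against at most 16 in any other library, and no reads of the Y-linked gene Ddx3y. Every other library had Ddx3y at 72.7 to 244 CPM (counts scaled to a common library size). By these genes the cells of BAC depleted 1 were female and those of every other library male. Sex was thus mixed within the BAC depleted group, and the labels do not give it. Fold changes called in a comparison that uses BAC depleted 1, and the counts over gene lists there, are also given without that library. The summed level of 14 macrophage markers was 13.2 to 15.2 CPM (counts scaled to a common library size) in BM sorted, 4820 to 5470 CPM in BM nonsorted, 26 to 75.4 CPM in BAC depleted and 12000 to 13600 CPM in BAC nondepleted libraries. Summed stromal markers were at 48300 to 50300, 35400 to 39400, 19700 to 25500 and 31400 to 52500 CPM in the same order of groups. The single stromal genes did not all follow this sum. Of the 10, 3 were called higher and 2 lower in BAC depleted than in BAC nondepleted cells, with and without BAC depleted 1. Their median log2 fold change was 0.55, and 0.47 without that library. Of all genes tested, 17.4% were called higher and 19.9% lower there.

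Ly6c1 and Ly6c2 are near copies, and their coding sequences are shown because a read can be given to the right gene only where they differ. Both are 396 bases long and lie on the minus strand of chromosome 15. They differ at 9 bases and are 97.7% identical, against 82.5% between Ly6a and Ly6c1 and 56.5% between Ly6a and Ly6e. The first 120 bases, from the start codon, hold 6 of the 9 differences, which are in capitals. The sequences are those of GENCODE vM21 on GRCm38.
Ly6c1: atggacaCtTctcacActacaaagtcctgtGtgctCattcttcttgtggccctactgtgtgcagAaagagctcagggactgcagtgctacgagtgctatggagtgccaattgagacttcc
Ly6c2: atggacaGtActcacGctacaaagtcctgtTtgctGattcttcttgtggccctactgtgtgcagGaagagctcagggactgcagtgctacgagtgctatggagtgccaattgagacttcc
Of all stretches of 100 bases in the Ly6c1 transcript, 15.3% also occurred in Ly6c2, and of those in Ly6c2 15.8% occurred in Ly6c1. For stretches of 50 bases the shares were 31.7% and 32.6%. Ly6e shared no stretch of 50 bases with another gene, and 8.05% of the 50-base stretches of Ly6a occurred in other genes. The treatment of reads with several matches in the authors' counting is not known here, and counts of Ly6c1 and Ly6c2 are uncertain to that extent.

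The regions just upstream of both genes are shown because only 1 of the pair was detected well above background. RefSeq promoter windows were at hand for 3 of the 6 genes, Ptprc, Ly6c1 and Ly6c2. The 250 bases before the start of Ly6c1 (GRCm38.p6, chr15:75048838-75049087, minus strand) and those before the start of Ly6c2 (chr15:75111972-75112221, minus strand) were aligned with free ends. Identical aligned bases are in capitals, and 170 of 232 overlapping columns were identical, or 73.3%.
Ly6c1: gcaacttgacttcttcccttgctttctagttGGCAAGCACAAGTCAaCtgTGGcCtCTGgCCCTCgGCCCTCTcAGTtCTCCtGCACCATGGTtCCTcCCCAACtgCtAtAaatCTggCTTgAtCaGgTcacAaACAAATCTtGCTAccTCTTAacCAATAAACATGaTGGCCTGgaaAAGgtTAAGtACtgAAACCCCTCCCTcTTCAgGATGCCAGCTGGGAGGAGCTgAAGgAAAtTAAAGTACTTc
Ly6c2: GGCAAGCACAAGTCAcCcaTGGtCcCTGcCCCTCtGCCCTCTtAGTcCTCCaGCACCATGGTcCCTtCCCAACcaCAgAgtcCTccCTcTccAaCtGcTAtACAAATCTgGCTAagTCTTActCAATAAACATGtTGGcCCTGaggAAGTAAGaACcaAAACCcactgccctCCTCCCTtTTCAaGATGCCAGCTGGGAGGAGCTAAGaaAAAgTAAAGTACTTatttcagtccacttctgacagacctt
The letters TATAAA, searched on both strands, occurred in the window of Ly6c1 and in that of Ptprc and not in that of Ly6c2, and 12.4% of 32851 RefSeq windows of that length held them. The letters GAGGAAGT, a core bound by PU.1, occurred in the window of Ly6c2 alone of the 3 and in 2.44% of all windows. The STAT site TTCNNNGAA occurred in none of the 3 windows and in 7.02% of all windows. A match describes letters and is not evidence of a bound site.

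**Figure D1:**
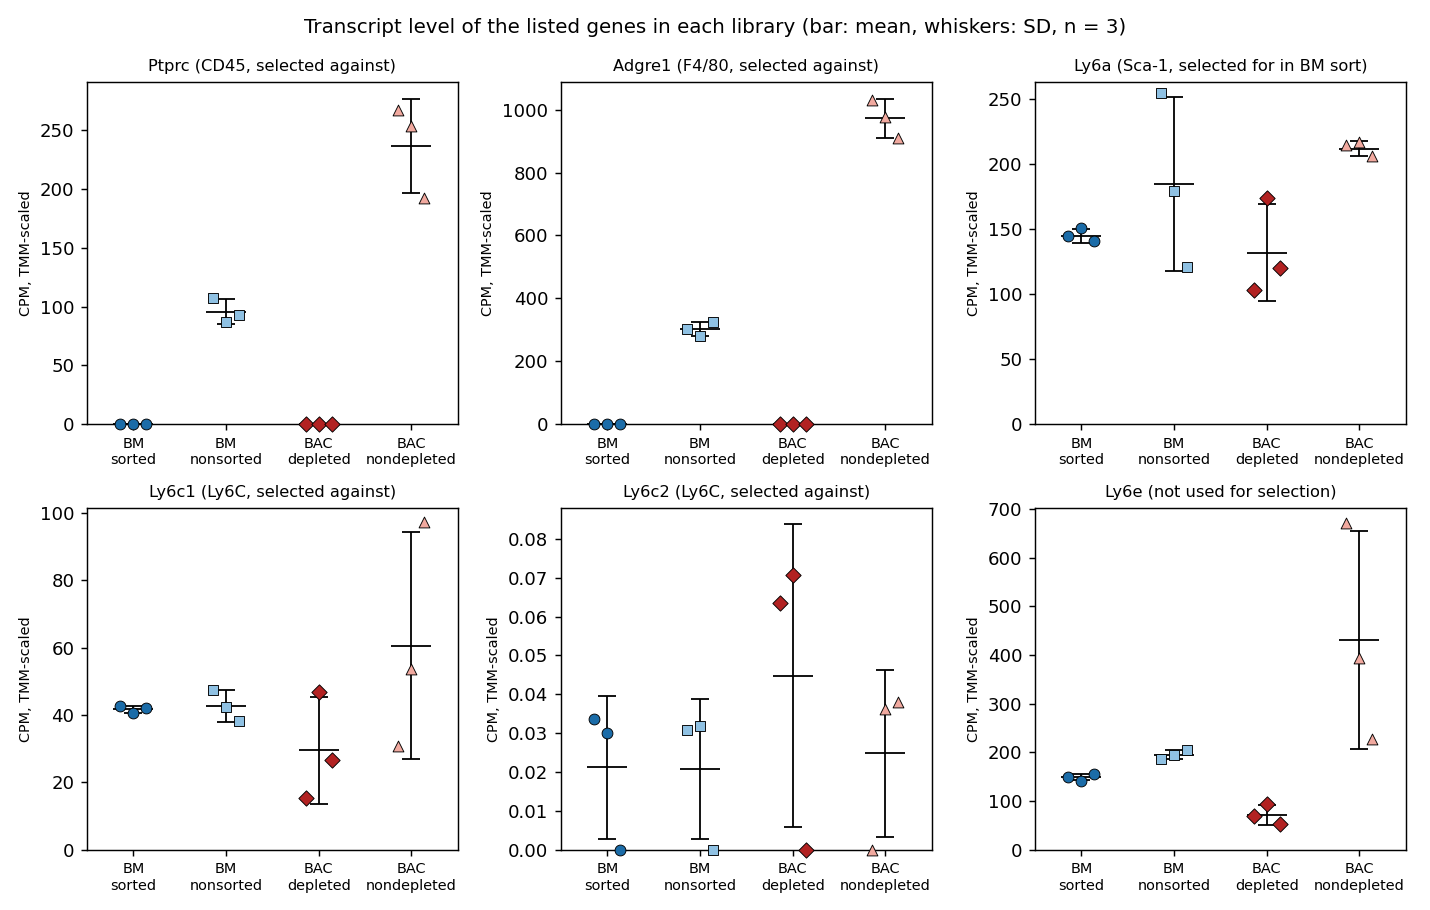
Level of each of the 6 genes in every library, in CPM on scaled library sizes with a linear axis per gene. Points are libraries, horizontal bars are means and whiskers are SD (n = 3). Ptprc and Adgre1 lie at or near 0 in BM sorted and BAC depleted libraries, while Ly6a, Ly6c1 and Ly6e lie well above 0 in all 4 groups and Ly6c2 stays under 0.08 CPM everywhere.

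The transcripts of CD45 and F4/80 were nearly absent from cells selected against these antigens. Ptprc had 0, 3 and 1 counts in BM sorted libraries, against 3488, 2742 and 3162 counts in BM nonsorted libraries. In the bone-associated cells it had 0 counts in each BAC depleted library, against 7942, 6976 and 5027 counts in BAC nondepleted libraries. No purified library came near an unpurified one. Adgre1 had 3, 1 and 2 counts in BM sorted libraries, against 9824, 8815 and 11050 counts in BM nonsorted libraries. It had 2, 0 and 0 counts in BAC depleted libraries, against 30797, 26882 and 23864 counts in BAC nondepleted libraries. Mean levels of Adgre1 were 0.064 ± 0.0355 CPM in BM sorted, 302 ± 21.6 in BM nonsorted, 0.0212 ± 0.0367 in BAC depleted and 973 ± 62.1 CPM in BAC nondepleted cells (SD, n = 3 each). Those of Ptprc were 0.0402 ± 0.0457, 95.7 ± 10.4, 0 and 237 ± 40 CPM in the same groups.

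In BM sorted cells the pooled ratio was 2290-fold lower for Ptprc, with a 95% counting interval of 895 to 8420, and 4830-fold lower for Adgre1, with an interval of 2220 to 13200. In BAC depleted cells Ptprc was 6660-fold lower at a floor of 3 counts over the group, and the lower limit of its counting interval was 5420-fold. Adgre1 was 40900-fold lower there, with an interval of 11300 to 337000. Counting intervals and the floor cover counting error only, since amplified reads are not independent molecules. Both genes passed edgeR's quasi-likelihood test in both purifications (adjusted p = 5.38e-07 and 2.82e-08 in the sort, in the order Ptprc and Adgre1), also in the depletion without BAC depleted 1 (8.12e-07 and 9.33e-08). They were the only 2 of the 5 listed genes tested that were called lower in the sort, where 6.06% of all 15698 genes tested were called lower. Both had been selected against at the protein level. In such bulk samples, fewer cells of a type and less RNA per cell cannot be told apart. All 14 macrophage markers fell in both purifications, with medians of −10.91 on the log2 scale in the sort and −13.07 in the depletion, against medians over all genes of 0 and 0.05. All 14 also fell in the depletion without BAC depleted 1.

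Sca-1 was selected for in the BM sort, and its transcript was not detectably higher in the cells that carried the antigen. Ly6a was at 145, 151 and 141 CPM in BM sorted libraries, against 255, 179 and 121 CPM in BM nonsorted libraries. The sorted libraries lay close together inside the range of the nonsorted ones. The log2 fold change was −0.35 ± 0.25 (approximate SE, 95% interval −0.90 to 0.21, adjusted p = 0.619, edgeR). The value was −0.05 without BM nonsorted 1, the library highest in Ly6a, and −0.58 without BM nonsorted 3, the lowest nonsorted library. In bone-associated cells, where Sca-1 played no part in the selection, Ly6a was at 103, 174 and 120 CPM in BAC depleted libraries, against 215, 217 and 206 CPM in BAC nondepleted libraries. These groups did not overlap, as was so for 46.3% of all genes tested in that comparison. The log2 fold change was −0.68 ± 0.25 (95% interval −1.24 to −0.13), with an adjusted p of 0.0535 in edgeR's test, just above the threshold of 0.05. The DESeq2 Wald test called it (adjusted p = 0.0326), and so did edgeR without BAC depleted 2, the depleted library highest in Ly6a (−0.94, adjusted p = 0.0169). Without BAC depleted 1 it was −0.53 (adjusted p = 0.157).

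The other antigen selected for in the BM sort, CD51, is the integrin alpha V chain encoded by Itgav. It was at 447, 478 and 497 CPM in BM sorted libraries, against 584, 441 and 391 CPM in BM nonsorted libraries, a log2 fold change of 0.01 ± 0.21 (adjusted p = 0.998, edgeR). CD31, selected against in the sort, is the endothelial adhesion protein encoded by Pecam1. Its transcript had 3, 1 and 2 counts in BM sorted libraries, against 9, 1 and 8 counts in BM nonsorted libraries, and it stayed below the low-count filter.

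Ly6C was selected against in both purifications, and Ly6c1 remained readily detected in purified cells from both sources. Ly6c1 was at 42.6, 40.5 and 42 CPM in BM sorted libraries, against 47.5, 42.3 and 38.1 CPM in BM nonsorted libraries. The groups overlapped, and the log2 fold change was −0.03 ± 0.42 (95% interval −0.97 to 0.91, adjusted p = 0.99, edgeR), whose sign turned with upper quartile scaling (0.05). This interval rests on 1 spread estimate shared by all 4 groups. The SD was 1.08 CPM in BM sorted, 4.69 in BM nonsorted, 15.9 in BAC depleted and 33.7 CPM in BAC nondepleted libraries. In BAC depleted libraries Ly6c1 was at 15.4, 46.7 and 26.5 CPM, against 30.8, 53.7 and 97.2 CPM in BAC nondepleted libraries. These ranges overlapped as well, and the log2 fold change was −1.04 ± 0.43 (95% interval −1.98 to −0.09, adjusted p = 0.0805, edgeR). This call changed with the library set and the tool. The adjusted p was 0.0197 without BAC depleted 2 (log2 fold change −1.54), 0.0296 without BAC nondepleted 1 (−1.36) and 0.0434 in the DESeq2 Wald test (−1.03). The fold change shrank to −0.53 without BAC nondepleted 3, the library highest in Ly6c1, and to −0.72 without BAC depleted 1.

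**Figure D2:**
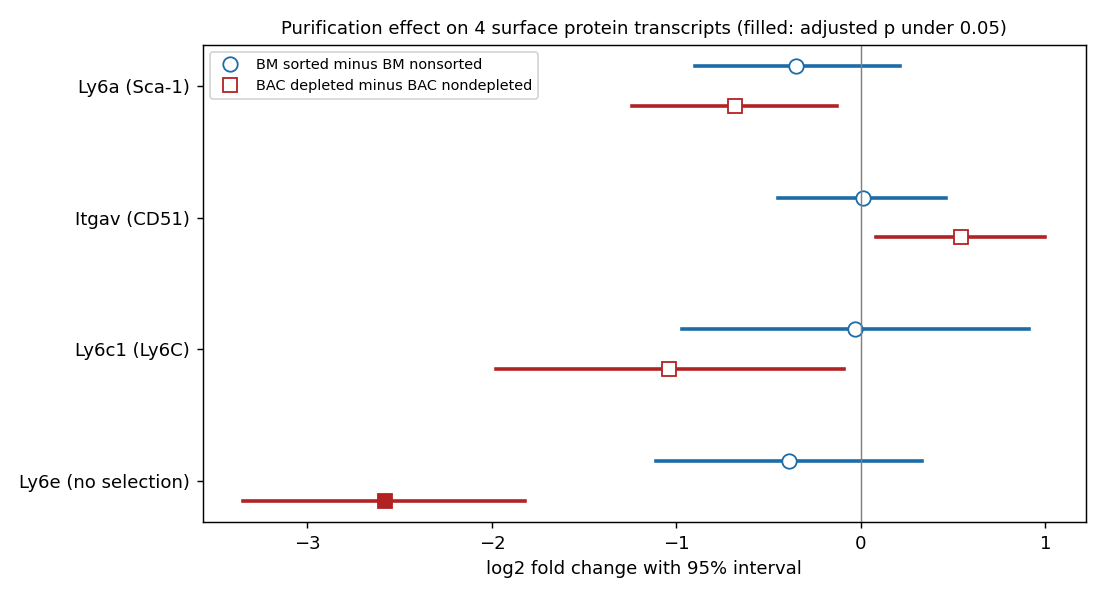
Log2 fold changes of Ly6a, Itgav, Ly6c1 and Ly6e in the sort of marrow cells (BM sorted minus BM nonsorted) and the depletion of bone-associated cells (BAC depleted minus BAC nondepleted). Symbols are fitted values, lines are 95% intervals, and a filled symbol marks an adjusted p under 0.05. The depletion effect on Ly6e, at −2.58, is the single filled symbol.

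Markers of other cells that can carry Ly6C were measured beside Ly6c1. In BM sorted libraries, 9 neutrophil markers summed to 2.11 to 2.37 CPM, 7 T cell markers to 2.38 to 3.09 CPM with Cd3e, Cd3d, Cd3g and Cd2 at 0, and 10 endothelial markers to 3.83 to 5.21 CPM. In BAC depleted libraries, neutrophil markers summed to 0.25 to 1.59 CPM and T cell markers to 0.0318 to 0.106 CPM. Endothelial markers there summed to 7.09 to 52.1 CPM, and the top value, in BAC depleted 3, was carried by the transcription factor gene Erg at 49.6 CPM. Ly6c1 in that library, at 26.5 CPM, was between the other depleted libraries. BAC nondepleted libraries had endothelial sums of 7.05 to 12.9 CPM. The part of these cells in the level of Ly6c1 was not tested.

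Ly6c2, the second Ly6C gene, was close to absent. It had 1, 1 and 0 counts in BM sorted, 1, 1 and 0 in BM nonsorted, 2, 2 and 0 in BAC depleted and 0, 1 and 1 counts in BAC nondepleted libraries. These 10 counts in all compare with 15559 counts of Ly6c1, and Ly6c2 did not pass the low-count filter. Its share of the reads given to both Ly6C genes was 0.05% in BM sorted (Wilson 95% interval 0.0137 to 0.182), 0.0478% in BM nonsorted (0.0131 to 0.174), 0.164% in BAC depleted (0.0636 to 0.42) and 0.0404% in BAC nondepleted cells (0.0111 to 0.147). No difference between groups was detectable at these counts. In the exact two-sided permutation test over 3 against 3 libraries, whose smallest possible p is 0.1, the 4 comparisons gave p = 0.4 to 0.8, and 0.8 in each after adjustment over the 4. Summing Ly6c1 and Ly6c2 into 1 feature left the fold changes of Ly6C on the same side of the threshold in every comparison. With 10 counts of Ly6c2 in all, that sum was nearly Ly6c1 itself and could not test how reads were split.

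The ratio of Ly6a to Ly6c1 counts inside a library does not depend on how libraries are scaled. On the log2 scale it was 1.8 ± 0.09 in BM sorted, 2.06 ± 0.38 in BM nonsorted, 2.27 ± 0.43 in BAC depleted and 1.97 ± 0.86 in BAC nondepleted cells (SD, n = 3 each). The widest spread was in BAC nondepleted libraries, where it was 2.8, 2.01 and 1.08. All 4 comparisons overlapped, with exact two-sided permutation p-values of 0.2 to 0.9 before adjustment and 0.8 to 0.9 after it.

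Ly6e, on which no cell had been selected, was the 1 Ly6 gene among the 6 called by edgeR in either purification. It fell to 69.3, 93.2 and 52.9 CPM in BAC depleted libraries, against 671, 394 and 228 CPM in BAC nondepleted libraries. The log2 fold change was −2.58 ± 0.34 (adjusted p = 0.000313, edgeR), or 6-fold lower, and every depleted library was below every nondepleted one. Groups did not overlap for 46.3% of all genes in that comparison. The depletion called 3 of the 5 listed genes lower, Ptprc, Adgre1 and Ly6e, where 19.9% of all genes were called lower. Leaving out any 1 library kept the call on Ly6e, at −2.9 to −2.12, and without BAC depleted 1 it was −2.56.

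In the marrow sort Ly6e was at 150, 142 and 155 CPM in BM sorted libraries, against 186, 195 and 205 CPM in BM nonsorted libraries. These groups did not overlap either, as for 28.7% of all genes in that comparison, yet the log2 fold change of −0.39 ± 0.33 did not pass (95% interval −1.11 to 0.33, adjusted p = 0.691, edgeR). Fitted on the 6 marrow libraries alone, with the same value of −0.39 and an SE of 0.08, it passed (adjusted p = 0.0263). The sort effect minus the depletion effect was 2.20 ± 0.46 on the log2 scale (adjusted p = 0.0217, edgeR), a difference called higher for 5.08% of all genes and for 1 of the 5 listed genes. It was no longer called without BM sorted 3 (adjusted p = 0.0591), BM nonsorted 1 (0.0572) or BM nonsorted 2 (0.0583), at 2.17 to 2.20, and was called without BAC depleted 1 (2.17, adjusted p = 0.0342).

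**Figure D3:**
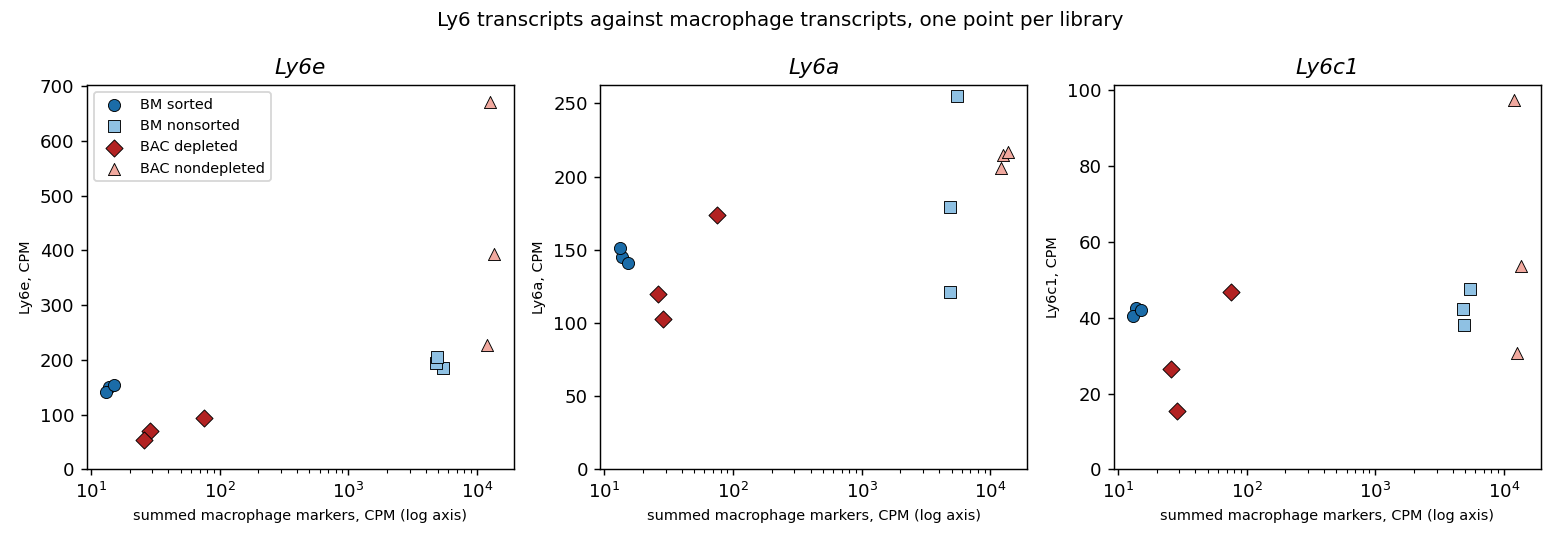
Levels of Ly6e, Ly6a and Ly6c1 in CPM (linear axes) against the summed level of 14 macrophage markers in CPM (log axis), 1 point per library. The 3 BAC nondepleted libraries lie together on the macrophage axis, at 12000 to 13600 CPM, and are spread from 228 to 671 CPM in Ly6e, while the 3 Ly6 genes remain well above 0 where macrophage markers are at their lowest.

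Within the 3 BAC nondepleted libraries, Ly6e had the same order as interferon response genes and another order than macrophage markers. An order over 3 libraries is a description only. The 3 libraries had 671, 394 and 228 CPM of Ly6e, summed macrophage markers of 12600, 13600 and 12000 CPM, and summed levels of 20 interferon response genes, Ly6e not among them, of 1040, 639 and 346 CPM. In BAC depleted libraries the same interferon sum was 356, 392 and 392 CPM at 69.3, 93.2 and 52.9 CPM of Ly6e. Macrophage sums there were 28.7, 75.4 and 26 CPM, in the same order as Ly6e. In marrow cells the interferon sum was 208 to 291 CPM in BM sorted and 225 to 239 CPM in BM nonsorted libraries. Between purified cells, 10 of the 20 interferon genes were called lower and 1 higher in BM sorted, with a median of −1.08. Without BAC depleted 1 the counts were the same and the median was −1.21. Of all genes, 24.6% were called lower and 22.9% higher. Ly6e was higher in BM sorted (1.05, adjusted p = 0.0234, edgeR), a call lost without some single libraries. The depletion called 8 of the 20 interferon genes lower and none higher, with a median log2 fold change of −0.75 against 0.05 over all genes, of which 19.9% were called lower. Without BAC depleted 1 it called 6 lower, with a median of −0.68. Mx1, an antiviral GTPase, was among them (0.133 ± 0.0307 CPM in BAC depleted and 5.3 ± 4.21 CPM in BAC nondepleted cells, log2 fold change −5.28 ± 0.69, adjusted p = 0.000642, edgeR, and −5.25 without BAC depleted 1, adjusted p = 0.00364). The sort called 2 of the 20 lower and none higher, with a median of −0.12, where 6.06% of all genes were called lower. The part of interferon genes and of macrophage content in the change of Ly6e was not tested.

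Marrow and bone-associated cells were then compared after purification. BM sorted cells held more Ly6e than BAC depleted cells, at 149 ± 6.34 against 71.8 ± 20.3 CPM (log2 fold change 1.05 ± 0.33, adjusted p = 0.0234, edgeR). This was 1 of 5 listed genes called higher, where 22.9% of all genes were. The call was lost without BM sorted 2 (adjusted p = 0.0503), BM sorted 3 (0.0616), BAC depleted 1 (0.0591) or BAC depleted 3 (0.0786), at 0.87 to 1.08. Ly6a averaged 145 ± 5.45 CPM in BM sorted and 132 ± 37.2 CPM in BAC depleted cells (0.14 ± 0.25, 95% interval −0.41 to 0.69, adjusted p = 0.678), and the sign turned without BAC depleted 1 (−0.02). Ly6c1 averaged 41.7 ± 1.08 CPM in BM sorted and 29.5 ± 15.9 CPM in BAC depleted cells (0.50 ± 0.42, adjusted p = 0.356), a value of 0.18 without BAC depleted 1 and of 1 without BAC depleted 2. For Ptprc, 4 counts over the BM sorted libraries stood against 0 over the BAC depleted ones, and for Adgre1 6 stood against 2. Such counts set no usable fold. Neither passed the test (adjusted p = 0.0599 and 0.292), though Ptprc passed without BM sorted 1 (0.0284) and Adgre1 without BAC depleted 1, which held both depleted counts (0.0488).

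Between the unpurified cells, BM nonsorted libraries held less Ptprc, Adgre1 and Ly6e than BAC nondepleted libraries, 3 of the 5 listed genes, where 16.8% of all genes were called lower. On the log2 scale the change was −1.31 ± 0.23 for Ptprc (adjusted p = 0.00498, edgeR), −1.69 ± 0.24 for Adgre1 (0.00113) and −1.14 ± 0.33 for Ly6e (0.0248). Macrophage markers moved the same way, with 12 of 14 lower in BM nonsorted cells and a median of −1.32. So did interferon response genes, with 16 of 20 called lower and 1 higher, and a median of −2.2 against −0.01 over all genes. Of all genes, 14.9% were called higher. The part of either list in the lower Ly6e was not tested. For Ly6e the call was lost without any of the BM nonsorted libraries (adjusted p = 0.0752, 0.0734 and 0.0593 in the order of their numbers), without BAC nondepleted 2 (0.0518) and when only these 2 groups were fitted (0.0566). Without BAC nondepleted 1, the library highest in Ly6e, the value was −0.68 (0.0878). Ly6a and Ly6c1 were not called. Ly6a averaged 185 ± 66.9 CPM in BM nonsorted and 212 ± 6 CPM in BAC nondepleted cells (−0.20 ± 0.25, 95% interval −0.75 to 0.35, adjusted p = 0.568). Its sign turned without BM nonsorted 3 (0.03). Ly6c1 averaged 42.6 ± 4.69 CPM in BM nonsorted and 60.6 ± 33.7 CPM in BAC nondepleted cells (−0.51 ± 0.42, adjusted p = 0.382), and the sign turned without BAC nondepleted 3 (0.01).

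All 5 genes that passed the filter had their group means in 1 order, with BAC nondepleted highest, then BM nonsorted, BM sorted and BAC depleted. For Ly6a and Ly6c1, no difference between neighbours in that order passed the test. For Ly6e, the difference between BM sorted and BM nonsorted did not pass, and for Ptprc and Adgre1 that between BM sorted and BAC depleted did not.

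The wider Ly6 and uPAR family, which shares the Ly6 fold and mostly the GPI anchor, was measured as a list of 42 genes that includes the 4 Ly6 genes above. All were in the table, 8 had no counts in any library, and 11 passed the low-count filter. In the RefSeq order of genes on chromosome 15 (GRCm38.p6), Ly6e, Ly6i, Ly6a, Ly6c1, Ly6c2, Ly6a2, Ly6g, Ly6g2 and Ly6f follow each other. Detection was patchy along this run. Ly6i had 18 counts over all 12 libraries and Ly6g, the neutrophil antigen gene, had 4. The sort called none of the 11 genes in either direction, by edgeR's test, with 6.23% of all genes called. At an unadjusted p below 0.05 it counted 1, Ly6a2, and DESeq2 called 0. The depletion called 3 higher and 2 lower, with a median of 0.69 against 0.05 over all genes, of which 17.4% were called higher and 19.9% lower, or 37.3% in all. Ly6f was among those called higher, on 12 counts over BAC depleted libraries against 0 over BAC nondepleted ones. Of the 12, 10 came from 1 library. Ly6f failed edgeR's test once BAC depleted 2 or any BAC nondepleted library was dropped (adjusted p = 0.081 to 0.115). With a replicate block it failed too (0.0631). The median includes Ly6f, Ly6g2 and Ly6a2, each at 0 counts in BAC nondepleted libraries. Between purified cells 5 of the 11 genes were higher and 2 lower in BM sorted, against 22.9% and 24.6% of all genes. Without BAC depleted 1, 14 family genes passed the filter. The depletion then called 2 higher and 2 lower, with a median of 0.21, and between purified cells 3 were higher and 3 lower in BM sorted. Between unpurified cells 2 were higher and 2 lower in BM nonsorted, against 14.9% and 16.8% of all genes.

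**Figure D4:**
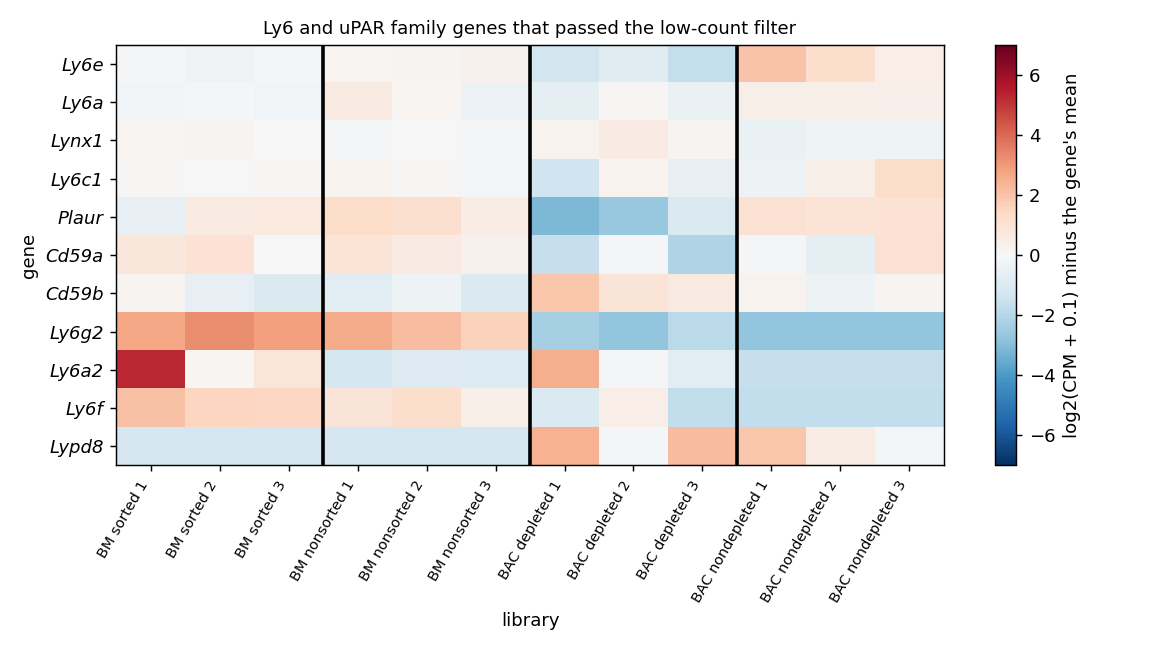
The 11 genes of the Ly6 and uPAR family that passed the low-count filter, as log2(CPM + 0.1) minus the mean of each gene over the 12 libraries, so that colours compare libraries within a gene. Ly6g2 and Ly6f are high in marrow libraries, Lypd8 has counts in bone-associated libraries alone, and BM sorted 1 stands out in Ly6a2.

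Plaur, the receptor of the protease urokinase, was at 2.58, 3.75 and 11.7 CPM in BAC depleted libraries, against 50.6, 47.1 and 49.2 CPM in BAC nondepleted libraries (log2 fold change −3.04 ± 0.54, adjusted p = 0.00181, edgeR). It was at 16.3, 37.7 and 38 CPM in BM sorted libraries, with a log2 fold change over BAC depleted cells of 2.37 ± 0.53 (adjusted p = 0.00475, edgeR). Without BAC depleted 1 these values were −2.67 (adjusted p = 0.00461) and 2 (0.0119). Lynx1, which binds nicotinic acetylcholine receptors, rose in the depletion, to 90 ± 13.9 CPM in BAC depleted cells against 55.9 ± 3.3 CPM in BAC nondepleted cells (0.69 ± 0.11, adjusted p = 0.000917, edgeR, and 0.74 without BAC depleted 1, adjusted p = 0.00132).

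Cd59a and Cd59b, both inhibitors of the complement membrane attack complex, went opposite ways between purified cells. Cd59a was at 16.9 ± 5.8 CPM in BM sorted and 5.34 ± 4.19 CPM in BAC depleted cells (1.66 ± 0.58, adjusted p = 0.0388, edgeR). Cd59b was at 1.77 ± 0.819 CPM in BM sorted and 5.72 ± 2.89 CPM in BAC depleted cells (−1.69 ± 0.43, adjusted p = 0.00833, and −1.2 without BAC depleted 1, adjusted p = 0.0276). The call on Cd59a was lost without BM sorted 1 or 2 and without BAC depleted 1 or 3 (adjusted p = 0.0796, 0.112, 0.111 and 0.109), and also without the filter (0.0912), with only these groups (0.0708) and with a replicate block (0.0566). In the depletion Cd59b was higher (1.26 ± 0.42, adjusted p = 0.0378), a call lost without BAC depleted 1 (0.77, adjusted p = 0.146), without any of the BAC nondepleted libraries (0.073 to 0.125), without the filter (0.0547) and with only these groups (0.0756).

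Ly6g2 was a marrow transcript in these libraries. It had 126, 207 and 156 counts in BM sorted libraries, against 1, 0 and 2 counts in BAC depleted libraries, a ratio of 142 with a 95% counting interval of 48.5 to 693 (adjusted p = 0.000121, edgeR, and 0.000585 without BAC depleted 1). BM nonsorted libraries had 128, 89 and 65 counts against 0 in each BAC nondepleted library. This was 80-fold higher by the floor of 3 counts, with a lower limit of the 95% counting interval of 64.7-fold. Ly6f, its neighbour, had 92 counts over BM sorted, 50 over BM nonsorted, 12 over BAC depleted and 0 over BAC nondepleted libraries. Lypd8 had the opposite pattern, with 0 counts in every marrow library, 60 over BAC depleted and 32 over BAC nondepleted libraries. Ly6a2 was carried by single libraries. It had 351 counts in BM sorted 1 against 8 and 15 in the other BM sorted libraries, and 54 in BAC depleted 1 against 5 and 2 in the other depleted ones.

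Genes that work with CD45 were followed next. Of 10 tested substrates and partners, the sort called 3 lower and none higher, with a median of −0.43, and the depletion called 6 lower and 1 higher, with a median of −1.1. Of all genes, 6.06% were called lower in the sort, and 19.9% lower and 17.4% higher in the depletion. Without BAC depleted 1, where 12 of the substrates and partners passed the filter, the depletion called 7 lower and 0 higher by edgeR's test. Lyn, a Src family kinase of myeloid and B cells, averaged 9.5 ± 10.4 CPM in BAC depleted and 101 ± 15.4 CPM in BAC nondepleted cells (−3.41 ± 0.62, adjusted p = 0.00206, edgeR, and −3.01 without BAC depleted 1, adjusted p = 0.00491). Pag1, an adaptor that brings the inhibitory kinase Csk to the membrane, fell in both (−2.09 ± 0.28 in the sort, −1.74 ± 0.28 in the depletion, adjusted p = 0.000744 and 0.000887), and the depletion value was −1.63 without BAC depleted 1 (adjusted p = 0.00399). Of 16 tested receptor-type phosphatases, Ptprc included, 5 were lower and none higher in the sort, while 6 were higher and 5 lower in the depletion, with and without BAC depleted 1, against the same shares of all genes. Ptpro, which macrophages express, had 1 count over BM sorted libraries against 1547 over BM nonsorted ones, and 1 count over BAC depleted libraries against 4063 over BAC nondepleted ones.

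The genes most like each listed gene were sought by Pearson correlation of log2 CPM over the 12 libraries, among 11334 genes, as a description. All points share the 4 groups, so genes that differ between groups correlate. Ptprc was most like Il21r, Selplg, Kcnk13 and Cd52 and Adgre1 most like C1qc, Bin2, Lcp2 and Myo1g, each at 0.999. Ly6a was most like Snx12 (0.952), Stx7 (0.929), Trappc8 (0.909) and Eea1 (0.892). Ly6c1 was most like Dnajb5 (0.897), Abhd17b (0.885), Rnf17 (0.877) and Anxa3 (0.873). Ly6e was most like Ints9 (0.953), Amdhd2 (0.951), Stard3 (0.942) and Nrm (0.941). Among the listed genes themselves, the correlation of Ptprc was 0.80 with Ly6e, 0.68 with Ly6a and 0.46 with Ly6c1.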

How the data were processed

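RNA from 12 libraries, 3 in each of 4 groups, was analysed from 1 table of raw read counts per gene, as the authors deposited it. The submitters' processing notes name MultiQC 1.7, Subread 2.0.1 with featureCounts, STAR 2.7.9a and the build GRCm39. The sources used here give no annotation release, no strand setting and no rule for reads with several matches, which leaves near-identical, antisense and overlapping genes uncertain. Per the labels' protocols, 50 ng of column-purified total RNA entered a low-input kit. The libraries held 27937709 to 32164725 counts. Rows with no symbol, 1442 in number, took 0.013% to 0.0297% of the counts and were not removed.

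Counts were tested with edgeR 4.0.16 in R 4.3.3, with TMM scaling, filterByExpr on the groups (15698 genes kept) and 1 mean per group over all 12 libraries, which left 8 residual degrees of freedom. The spread of a gene was estimated once for all groups, so intervals for marrow cells also carry the spread of bone-associated libraries. Quasi-likelihood F tests with robust dispersions were adjusted by Benjamini-Hochberg over all genes tested, with 0.05 as the threshold for a call. The SE of a log2 fold change is its size divided by the square root of F. A ratio against 0 counts used a floor of 3 counts over the group and carries the lower limit of the exact 95% counting interval. Other pooled ratios carry the whole interval. Since separate animals are not labelled, the p-values reflect only how these libraries vary, and part of that may be technical. The test was tried on simulated counts with known changes in the sort comparison alone. The simulated spread was equal in all groups and below the common dispersion of these data, 0.0969. Unequal spread between groups and genes at 0 counts in 1 group were therefore not covered.

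Coding sequences came from GENCODE vM21 (GRCm38) and promoter windows from RefSeq (GRCm38.p6), and no coordinates were converted to the build of the files. Sequences were aligned with Biopython 1.88.

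The 6 genes and all lists were chosen with earlier results of these data known. Genes named beside the 6 were Itgav and Pecam1, members of the Ly6 and uPAR family with at least 1 CPM in a group, up to 2 called genes each way per list and comparison at 5 CPM or more, and the 4 genes most like each listed gene. Ly6f, Ly6g, Ly6i and Lypd8 were named after their values were seen, and Ptpro, Mx1 and the others by the rule. Not every gene the rule allows is printed. Tried as alternatives were upper quartile scaling, DESeq2 size factors, no filter and a stricter one, only the groups compared, a replicate block, Ly6c1 and Ly6c2 summed, the DESeq2 1.42.0 Wald test and each library left out. The counts over lists without BAC depleted 1 were added after seeing the data.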

Additional observations from a re-analysis of the deposited data

Results flagged for a closer look

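The effect of purification on Ly6e differed between marrow and bone-associated cells by the test of the difference itself. The log2 fold change in the sort (BM sorted minus BM nonsorted) was −0.39 ± 0.33 and that in the depletion (BAC depleted minus BAC nondepleted) was −2.58 ± 0.34, a difference of 2.2 ± 0.46 (adjusted p = 0.0217, edgeR's quasi-likelihood test). Ly6e was lower in 3 of 3 purified libraries from both sources, against every unpurified library of the same source. Groups did not overlap for 28.7% of all genes tested in the sort and for 46.3% in the depletion. The BAC nondepleted group was the most variable, at 671, 394 and 228 CPM. With each library left out in turn the difference was 1.73 to 2.51, and its adjusted p was 0.00666 to 0.0591. Purification was by flow sorting in one source and by magnets in the other, and on different sets of antigens. Marrow cells were cultured under hypoxia, and culture of the bone-associated cells is not labelled. Source, culture, antigens and method therefore cannot be told apart.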

How the results depend on the processing

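Under 14 alternatives per comparison, Ptprc and Adgre1 kept their direction and call in the sort, the depletion and between unpurified cells, and Ly6e kept both in the depletion. Upper quartile scaling turned the sign of Ly6c1 in the sort (0.05), as did no filter (0.01), and made Itgav called in the depletion (0.61), as did the stricter filter (0.57) and the DESeq2 Wald test (0.55). That test also called Ly6a (−0.68) and Ly6c1 (−1.03) lower in the depletion and the difference of effects for Ptprc (3.97). It called 2446 genes for the difference of effects, against 1266. With only the groups compared, Ly6e was called in the sort (−0.39) and lost between unpurified cells (−1.11), and the depletion called 3556 genes, against 5863. In these cases the cause was not tested.

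With 1 library left out, log2 fold changes in the sort were −0.58 to −0.05 for Ly6a, −0.11 to 0.05 for Ly6c1 and −0.11 to 0.19 for Itgav. In the depletion they were −0.94 to −0.53 for Ly6a, −1.54 to −0.53 for Ly6c1 and 0.41 to 0.71 for Itgav. Between purified cells they were 2.27 to 3.96 for Ptprc, 0.75 to 4 for Adgre1, −0.02 to 0.39 for Ly6a, 0.18 to 1 for Ly6c1 and 0.87 to 1.29 for Ly6e. Between unpurified cells they were −0.5 to 0.03 for Ly6a, −0.82 to 0.01 for Ly6c1 and −1.45 to −0.68 for Ly6e. The difference of effects was 3.61 to 5.27 for Ptprc, 2.44 to 5.69 for Adgre1 and 1.73 to 2.51 for Ly6e. Genes called were 2949 to 4188 between unpurified cells (4980 with all libraries, lowest without BM nonsorted 2) and 437 to 1612 for the difference of effects (lowest without BM sorted 3). The Ly6c2 share differed by −0.0191 to 0.0297 percentage points in the sort and −0.00681 to 0.0343 between unpurified cells, and the Ly6a to Ly6c1 log2 ratio by −0.14 to 0.72 in the depletion and −0.35 to 0.51 between unpurified cells. Fewer libraries leave fewer residual degrees of freedom.

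Replicate numbers showed no clear pairing, as same-numbered libraries correlated at −0.22 to 0.24 across the groups compared. With 3 libraries per group this cannot tell whether same-numbered libraries shared an animal or a culture. The replicate block gave 808 genes called for the difference of effects and −0.01 for Itgav in the sort, and changed no call among the listed genes. For Ly6c2, 10 counts over 12 libraries limit any comparison.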

Other observations

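Of 6 genes of the alpha V integrin and its beta partners, all tested, 2 were called higher and none lower in BM sorted than in BAC depleted cells, with and without BAC depleted 1, where 22.9% of all genes were called higher. The list median was 0.06 against −0.02 over all genes. In BM nonsorted against BAC nondepleted cells 2 were again called higher and none lower, where 14.9% of all genes were called higher. Itgav was one of the 2 between purified cells (474 ± 25.5 CPM in BM sorted and 284 ± 61 CPM in BAC depleted cells, log2 fold change 0.74 ± 0.21, adjusted p = 0.014, edgeR, and 0.57 without BAC depleted 1, adjusted p = 0.0393). Itgb3, a beta partner that with alpha V binds vitronectin, averaged 73.2 ± 10.6 CPM in BM sorted and 9.2 ± 2.65 CPM in BAC depleted cells (2.99 ± 0.31, adjusted p = 7.89e-05, and 2.8 without BAC depleted 1, adjusted p = 0.000284). Between unpurified cells it was at 53.1 ± 9.51 CPM in BM nonsorted and 6.13 ± 2.29 CPM in BAC nondepleted cells (3.11 ± 0.31, adjusted p = 0.000297). Neither purification called any of the 6 by edgeR's adjusted test. At an unadjusted p below 0.05 the sort counted 0 and the depletion 1, Itgav, and DESeq2 called the same 0 and 1. Without BAC depleted 1, edgeR called 1 higher in the depletion, Itgav (0.71, adjusted p = 0.0192).

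The enzymes that build and attach the GPI anchor, by which Ly6 proteins are held on the membrane, were tested as 24 genes. The sort called none of them by edgeR's adjusted test, 3 at an unadjusted p below 0.05 and 1, Pigz, by DESeq2. The depletion called 4 higher and 7 lower, with a median of −0.07 against 0.05 over all genes, of which 17.4% were called higher and 19.9% lower. Both counts were the same without BAC depleted 1. Pgap1, which remodels the anchor after attachment, was at 8.11, 7.21 and 6.25 CPM in BAC depleted libraries, against 22.3, 21.7 and 22.3 CPM in BAC nondepleted libraries (−1.62 ± 0.15, adjusted p = 1.88e-05, and −1.71 without BAC depleted 1, adjusted p = 5.93e-05). Pigp, part of the enzyme of the first step, averaged 49.6 ± 7.43 CPM in BAC depleted and 26.6 ± 0.897 CPM in BAC nondepleted cells (0.90 ± 0.14, adjusted p = 0.000923, and 0.91 without BAC depleted 1, adjusted p = 0.00267).

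Of 20 adhesion G-protein-coupled receptors tested, the family of F4/80, the sort called 3 lower and none higher, and the depletion 5 higher and 3 lower, with and without BAC depleted 1. Adgre1 itself, whose antigen was selected against, was among the lower genes in both purifications. Of all genes, 6.06% were called lower in the sort, and 17.4% higher and 19.9% lower in the depletion. Adgrf5 was at 524, 332 and 314 CPM in BM sorted libraries, against 8.2, 15.6 and 6.79 CPM in BAC depleted libraries (5.26 ± 0.48, adjusted p = 5.04e-05, edgeR, and 5.12 without BAC depleted 1, adjusted p = 0.000227). Adgrl4, known from endothelial cells, reached 478 CPM in BAC depleted 3, against 38.7 and 41.4 CPM in BAC depleted 1 and 2. It averaged 91.8 ± 10.6 CPM in BAC nondepleted cells. The endothelial gene Pecam1 was at most 0.778 CPM in any BAC depleted library.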
